A study of Drosophila melanogaster with 6 samples.

Results

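Tetraspanins are small membrane proteins that cross the membrane 4 times and carry a large outer loop held by cysteine bridges. They gather integrins, proteases, receptors and other tetraspanins into membrane patches, and they travel through the secretory and endosomal routes. In flies many tetraspanin genes sit side by side in the Tsp42E cluster, named for its cytological position. The members described here are the genes whose symbol in the platform annotation starts with Tsp followed by a digit. They came to 32 of 11982 measured genes, with 16 in the Tsp42E cluster and 16 elsewhere, and each had a single probe set that named it alone. Tsp42Eb and Tsp66A share their probe sets with other genes (4 probe sets in all) and are not analysed here.

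RNA was taken from whole Drosophila melanogaster embryos after passage through a COPAS biosorter, which separates single embryos by size and fluorescence. The mutant group held 3 samples of CrebA null mutant embryos, picked because they lacked the GFP of the balancer chromosome, and the labels name no allele. CrebA is a bZIP transcription factor, and the series title ties it to genes of the secretory pathway. The wild-type group held 3 samples that had passed the same sorter. Embryos of both groups were collected over 8 h and aged for 11 h more, and the labels give stages 11 to 15 in one field and 11 to 17 in another. Each sample was hybridised to 1 Affymetrix Drosophila Genome 2.0 array, and values are log2 expression values made with RMA. Nothing in the labels says that replicates came from separate collections, so the p-values cover the spread between these 6 samples alone, and part of it may be technical.

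Array means were 6.39 on every array, and with 3 arrays a genotype the precision is limited. The replicate 2 arrays stood apart from the other 4 along the first principal component, with scores of 20.1 for the mutant and 53.5 for the wild type, against -36.8 to -3.20 for the others. The level of CrebA itself is not analysed here, so the genotype labels have no check of their own from it. Among markers of embryonic tissues, 2 of 5 glial genes were lower in the mutants (nrv2 and gcm), 1 of 4 midgut genes was higher (alphaTry) and 1 was lower (mex1). At an unadjusted p under 0.05, 4 of the 5 glial genes were lower, and the median glial change was -0.89, with -0.81, -0.95 and -0.56 within the 3 replicate numbers. The call of gcm was lost in all 6 fits without 1 array (adjusted p 0.0651 to 0.137) and that of nrv2 in 4 of 6. The call of alphaTry held in 2 of these 6 fits (adjusted p 0.0447 to 0.112) and that of mex1 in all 6. None of the 7 haemocyte, 5 tracheal, 6 salivary gland, 3 muscle and 4 neuronal markers measured was called in limma (adjusted p under 0.05). Over all genes 1.90% were called higher and 1.02% lower. At an unadjusted p under 0.05, 1 haemocyte and 1 muscle marker were higher, and 1 tracheal and 3 salivary gland markers were lower. No neuronal marker reached it, beside 9.92% of all genes higher and 7.73% lower. With the replicate number as a block, 4 of 5 glial markers (repo, wrapper, nrv2 and gcm), 3 of 6 salivary gland markers (sage, PH4alphaSG1 and eyg) and the tracheal marker vvl were lower. In that fit 2 of 3 muscle markers (Mlc2 and up) and the haemocyte marker Pxn were higher, beside 12.6% of all genes higher and 9.21% lower. The median of the salivary gland markers lay between 7.87 and 8.20 on mutant arrays, against 8.24 to 8.60 on wild-type arrays. The median of the muscle markers lay between 10.41 and 11.54 on mutant arrays, against 9.82 to 11.02 on wild-type arrays, and that of the glial markers between 8.30 and 9.29, against 8.98 to 9.14. The corresponding medians were 5.41 to 5.98 against 5.42 to 6.05 for haemocytes, 7.23 to 7.72 against 7.43 to 7.91 for midgut, 11.33 to 11.66 against 11.34 to 11.47 for trachea, and 8.49 to 8.66 against 7.79 to 8.79 for neurons. The haemocyte gene eater lay within the foreign Tag controls described below on every array and Hml on 4 of 6. The part of tissue makeup in the changes below was not tested. In whole embryos, fewer cells of a type and less RNA per cell cannot be told apart.

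Setting null mutants against wild type shows which transcript levels differ when CrebA is missing. Of the 32 tetraspanin genes, 4 were higher in the mutants (Tsp42Ec, Tsp42El, Tsp42En and Tsp42Eo), none was lower and 28 were not called (limma, Benjamini-Hochberg adjusted p under 0.05 over all 18769 probe sets). At an unadjusted p under 0.05, 17 had positive and 2 negative changes, beside 9.92% and 7.73% of all genes. All 4 called genes belong to the Tsp42E cluster, so that 4 of 16 cluster genes and 0 of 16 other tetraspanin genes were called. These counts leave out 2 tetraspanin genes with other names. TM4SF, outside the cluster, was called higher (adjusted p 0.0424) and lbm, inside it, was not called (adjusted p 0.217). Over all 11982 genes the share called higher was 1.90% and the share called lower 1.02%. The folds of the 4 called members, mutant over wild type, ran from 1.74 to 2.46.

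With the replicate number as a block in the same fit, 19 of the 32 genes were higher and 1 was lower, against 12.6% and 9.21% of all genes. In the cluster 13 of 16 were then higher and 1 lower (Tsp42Ee), and elsewhere 6 of 16 were higher and none lower. The genotypes did not overlap in 12 cluster genes on the higher side and 1 on the lower side, and in 4 and 1 of the other tetraspanin genes. For all genes these shares were 10.9% and 10.2%.

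The direction of change leaned the same way whether or not a gene was called. Of the cluster genes 15 of 16 had a positive log2 change, and of the other tetraspanin genes 11 of 16, beside 45.5% of all genes. When each array was shifted to a common median of all probe sets, or of the ribosomal protein genes, the counts were 14 of 16 and 8 of 16. The median change of all genes was then -0.085 and -0.094, so the share of 45.5% holds for the unshifted values only. A log2 change of at least 0.5 was reached by 10 cluster genes and 4 others, beside 8.59% of all genes. The median log2 change was 0.52 in the cluster and 0.07 in the other tetraspanin genes, a difference of 0.45, with -0.02 over all genes. Within the 3 replicate numbers, the median difference of mutant minus wild type was 0.60, 0.51 and 0.59 in the cluster. In the other tetraspanin genes it was 0.11, 0.16 and 0.22. The difference between the cluster and the other tetraspanin genes is a description and was not tested.

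**Figure D1:**
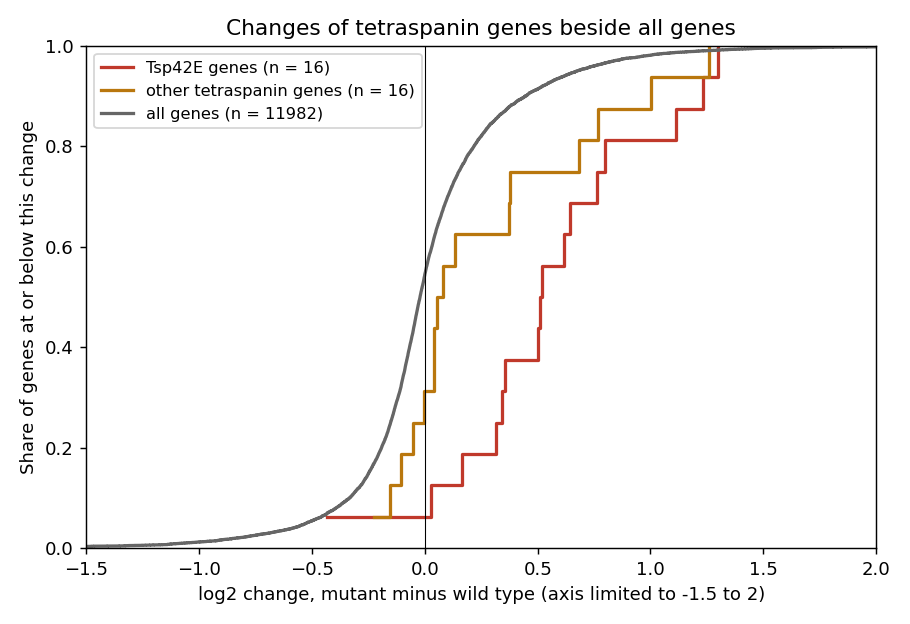
Cumulative share of genes (y axis) at or below each log2 change of mutant minus wild type (x axis) for the 16 Tsp42E genes, the 16 other tetraspanin genes and all 11982 genes. The Tsp42E curve lies mostly to the right, with a median of 0.52, though it starts lower (-0.43, Tsp42Ee) than that of the other tetraspanin genes (-0.23). The other tetraspanin genes rise early and then spread to 1.26, and all genes centre on -0.02.

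The 4 called genes are spread along the cluster, which in the RefSeq order runs from Tsp42Ea to Tsp42Er with lbm among its members. Tsp42Ec had values of 7.90, 7.78 and 8.00 on the mutant arrays of replicates 1, 2 and 3, against 6.54, 6.46 and 6.78 on the wild-type arrays. The genotypes did not overlap and the arrays of each lay close together (SD 0.11 in mutants and 0.17 in wild type), and the log2 change was 1.30 (SE 0.12, adjusted p 0.00987). Tsp42El, much further along, had 10.24, 10.49 and 10.47 in mutants, against 9.06, 9.52 and 9.28 in wild type, with no overlap and a log2 change of 1.11 (SE 0.14, adjusted p 0.0234).

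Tsp42En had 7.92, 8.04 and 8.01 in mutants, against 6.49, 6.76 and 7.03 in wild type. The mutant arrays lay close together (SD 0.06) and the wild-type arrays were spread (SD 0.27), and the log2 change was 1.23 (SE 0.15, adjusted p 0.0201). Tsp42Eo, the dimmest of the 4, had 6.29, 6.22 and 6.31 in mutants, against 5.62, 5.18 and 5.61 in wild type, a change of 0.80 (SE 0.14, adjusted p 0.0482). Wild-type replicate 2 of Tsp42Eo lay within the foreign controls, which are 17 Tag probe sets whose sequences do not occur in the fly and whose highest values ran from 4.71 to 5.28 over the arrays. Tsp42Eo lies inside the span of Tsp42Ep in the RefSeq table, and whether their probe sets share signal was not tested. Its call held in 9 of 19 alternative settings, against 15 for Tsp42Ec, 14 for Tsp42En and 13 for Tsp42El, and was lost when dim probe sets were left out of the fit.

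Between the called genes lay others with changes of very different size. Tsp42Ed and Tsp42Ee follow Tsp42Ec directly. Tsp42Ed had 10.10, 9.57 and 10.44 in mutants, against 9.81, 9.25 and 10.10 in wild type. These ranges overlap, since replicate 2 was lowest in both genotypes, but the difference within each replicate number was 0.29, 0.32 and 0.35, and its adjusted p was 0.772 without the block and 0.0311 with it. Tsp42Ee had 11.71, 11.51 and 11.73 in mutants, against 12.20, 11.96 and 12.09 in wild type, the only cluster gene with a negative change (-0.43, SE 0.11, adjusted p 0.116, and 0.0120 with the block). All 3 mutant arrays of Tsp42Ee lay below all 3 wild-type arrays. Its 95% interval was -0.69 to -0.17, and that of Tsp42Ec was 1.01 to 1.58. Tsp42Ee and Tsp42Ec hold the lowest and highest changes of the cluster, and the difference between them was not tested.

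From Tsp42Ef to Tsp42Ej, 4 of the 5 genes had changes between 0.34 and 0.76, and none of the 5 was called without the block. The exception was Tsp42Eh, with a change of 0.16 and overlapping genotypes. Tsp42Ef had 9.34, 9.72 and 9.60 in mutants, against 8.69, 9.16 and 8.87 in wild type (change 0.64). Tsp42Eg had 8.04, 7.75 and 8.22 in mutants, against 7.48, 7.19 and 7.49 in wild type (change 0.62). Although they are neighbours, Tsp42Ef was highest and Tsp42Eg lowest on replicate 2 of both genotypes, while the mutant arrays of each lay above its wild-type arrays. Tsp42Ei had 8.27, 8.19 and 8.25 in mutants, against 8.05, 7.90 and 7.74 in wild type (change 0.34), again without overlap. Tsp42Ej, also called sunglasses, which serves the lysosomal breakdown of rhodopsin in the fly eye, had 9.12, 9.48 and 9.21 in mutants, against 8.31, 8.87 and 8.34 in wild type (change 0.76).

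Tsp42Ek had 5.59, 5.65 and 5.49 in mutants, against 4.92, 5.22 and 5.05 in wild type (change 0.51). The wild-type arrays of replicates 1 and 2 lay within the foreign controls and none of the mutant arrays did, and the genotypes did not overlap. The span of Tsp42Ek overlaps that of Tsp42Ej in the RefSeq table. At the far end of the cluster, Tsp42Ep had 5.81, 5.96 and 5.79 in mutants, against 5.43, 5.51 and 5.56 in wild type (change 0.35). Tsp42Eq had 7.98, 7.97 and 8.25 in mutants, against 7.65, 7.35 and 7.64 in wild type (change 0.52). Tsp42Er had 7.28, 6.92 and 7.28 in mutants, against 6.65, 6.63 and 6.71 in wild type (change 0.50). In each of these 3 genes every mutant array lay above every wild-type array. The 8 genes from Tsp42Ef to Tsp42Er given here without a call had adjusted p-values of 0.0730 to 0.187, and of 0.00280 to 0.0478 with the block.

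Only Tsp42Ea and Tsp42Eh of the cluster were called in neither fit, with changes of 0.03 (95% interval -0.34 to 0.40) and 0.16 (-0.08 to 0.41). Tsp42Ea sat between 11.62 and 11.85 in mutants, against 11.42 to 11.94 in wild type, so its mutant range lay inside its wild-type range. Both are read by probe sets of the s type, which by Affymetrix naming can match transcripts of several genes. Such probe sets read 5 of the 32 members, the others being Tsp29Fb, Tsp66E and Tsp74F. The span of Tsp42Ea overlaps that of Tsp42Eb in the RefSeq table, and whether its probe set also reads Tsp42Eb was not tested.

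**Figure D2:**
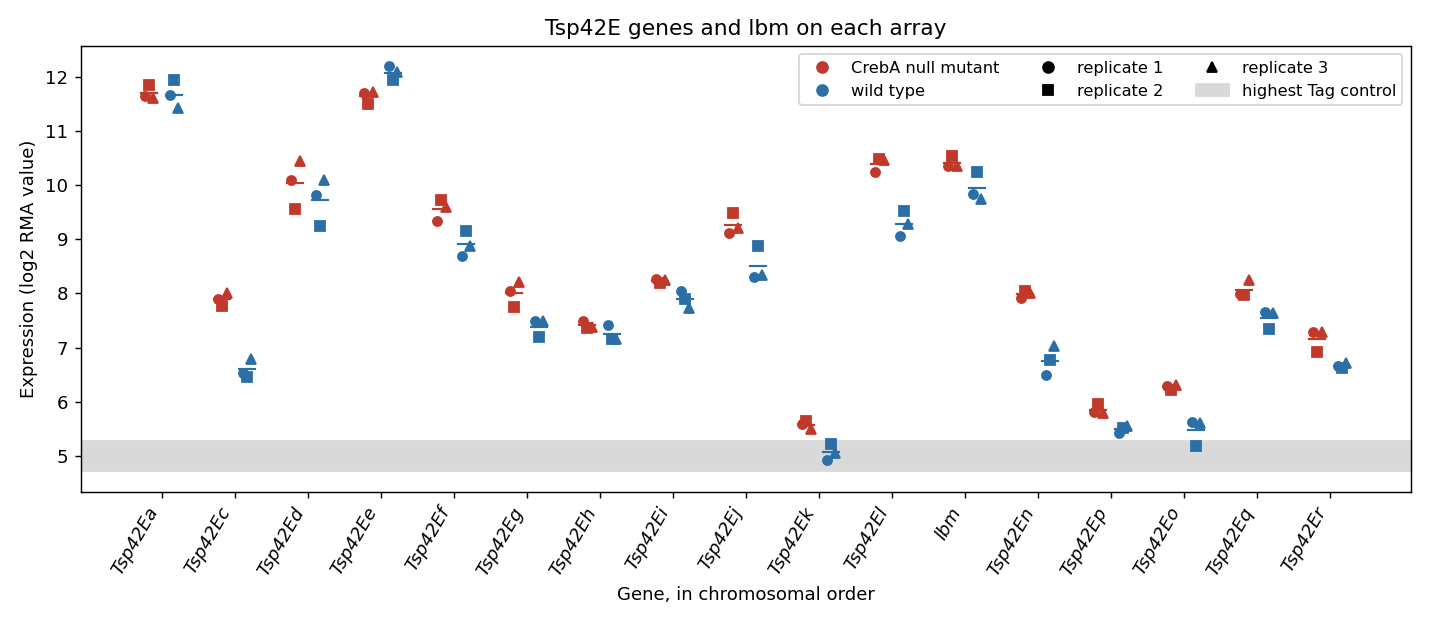
Log2 expression (y axis) of the 16 Tsp42E genes and lbm in chromosomal order (x axis), with each gene's 3 mutant arrays in red left of its 3 wild-type arrays in blue, marker shape for the replicate number, bars for means, and a grey band for the range of the highest Tag control. Mutants lie above wild type without overlap in 12 of the 16 Tsp42E genes, among them the called Tsp42Ec, Tsp42El, Tsp42En and Tsp42Eo, and in lbm. Tsp42Ee is the one gene with mutants below wild type, and Tsp42Ea, Tsp42Ed and Tsp42Eh overlap.

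The RefSeq table lists 27 genes from Tsp42Ea to Tsp42Er, 18 of them tetraspanin genes. Of the 2 measured genes of other kinds in this stretch, CG30159 had a change of 0.22 (SE 0.09, adjusted p 0.336) and Pgant3, a mucin-type O-glycosyltransferase gene, one of 0.63 (SE 0.19, adjusted p 0.199). Late bloomer (lbm), a cluster gene with another kind of name whose protein promotes the forming of synapses between motor axons and muscle, is no member by symbol. It had 10.35, 10.55 and 10.36 in mutants, against 9.84, 10.25 and 9.75 in wild type (change 0.47, SE 0.15, adjusted p 0.217, and 0.0159 with the block). Its neighbours Tsp42El and Tsp42En on either side were called. TM4SF, a tetraspanin gene outside the cluster, was higher in the mutants, with 7.77, 7.65 and 7.98 against 7.21, 7.04 and 6.93 in wild type (change 0.74, SE 0.12, adjusted p 0.0424). Its call held in 9 of 19 alternative settings and was lost in all 6 that left out 1 array (adjusted p 0.0674 to 0.167), while the change stayed between 0.65 and 0.82.

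**Figure D3:**
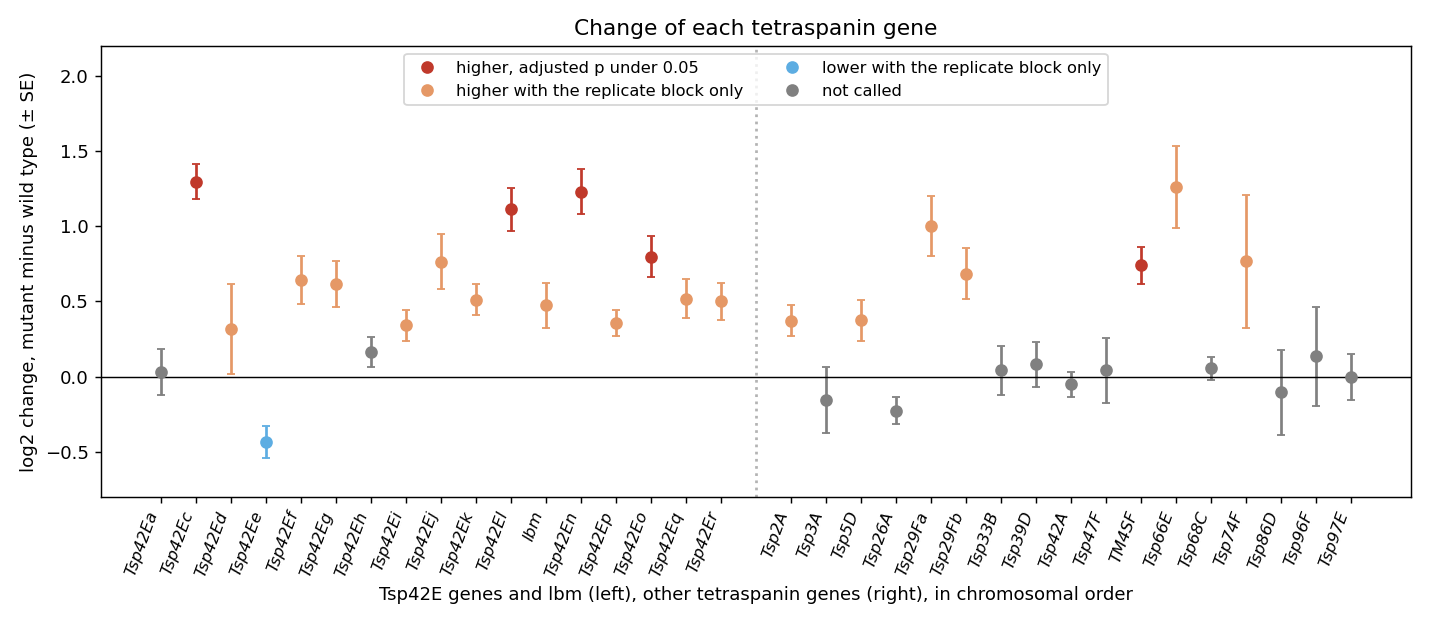
Log2 change of mutant minus wild type (y axis, points with SE) for the Tsp42E genes with lbm (left) and the other tetraspanin genes with TM4SF (right), in chromosomal order. Red points are higher at an adjusted p under 0.05, orange and light blue points are called higher or lower only with the replicate block, and grey points in neither fit. Cluster changes run from -0.43 (Tsp42Ee) to 1.30 (Tsp42Ec), and those of the other members from -0.23 (Tsp26A) to 1.26 (Tsp66E).

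Outside the cluster the changes fell into a few large positive ones and many near 0. Tsp66E had 10.61, 10.05 and 10.76 in mutants, against 9.54, 8.74 and 9.36 in wild type. Every mutant array lay above every wild-type array and the change, 1.26, was second in size among all 32 members, but the spread within each genotype (SD 0.37 in mutants and 0.42 in wild type) left it uncalled (SE 0.27, adjusted p 0.0838). With the replicate number as a block, which takes up that spread, the SE was 0.09 and the adjusted p 0.000930.

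Tsp29Fa and Tsp29Fb lie next to each other on chromosome arm 2L. Tsp29Fa had 9.83, 9.65 and 10.19 in mutants, against 8.88, 8.60 and 9.18 in wild type (change 1.00, SE 0.20, adjusted p 0.0679, and 0.000930 with the block). Tsp29Fb had 10.46, 10.24 and 10.74 in mutants, against 9.78, 9.59 and 10.03 in wild type (change 0.68, SE 0.17, adjusted p 0.120, and 0.00237 with the block). Both were lowest on replicate 2 and highest on replicate 3 in each genotype, and within a replicate number the difference held between 0.95 and 1.05 for Tsp29Fa and between 0.66 and 0.71 for Tsp29Fb. Tsp74F ran the same way over replicates, with 10.08, 9.27 and 10.49 in mutants, against 9.34, 8.42 and 9.78 in wild type. Its genotypes overlapped, and its change of 0.77 had an adjusted p of 0.568, and of 0.00198 with the block.

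Tsp2A, a protein of the smooth septate junctions that seal the midgut and Malpighian tubule epithelium, had 10.47, 10.47 and 10.65 in mutants, against 10.04, 10.29 and 10.15 in wild type (change 0.37, SE 0.10, adjusted p 0.158, and 0.0398 with the block). The genotypes did not overlap. The partner proteins of Tsp2A at that junction were measured by 3 genes, none of which was called (1 at an unadjusted p under 0.05). Ssk, the brightest, had 11.51, 11.59 and 11.49 in mutants, against 11.04, 11.29 and 11.06 in wild type (change 0.40, SE 0.10, adjusted p 0.114, and 0.0179 with the block). The next, hoka, averaged 10.50 ± 0.53 in mutants and 10.34 ± 0.46 in wild type (SD, n = 3 each), with a change of 0.16. Tsp5D, the last of the members called only with the block, had a change of 0.38 (adjusted p 0.283, and 0.0309 with the block) and overlapping genotypes.

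Tsp3A, Tsp26A and Tsp86D belong to the tetraspanin type that carries the metalloprotease Kuzbanian, which cuts the Notch receptor, towards the cell surface. None of them was called, and all 3 had negative changes, of -0.16, -0.23 and -0.10. Tsp3A ranged from 7.12 to 7.56 in mutants, against 7.24 to 7.89 in wild type, and Tsp86D from 7.76 to 8.36, against 7.73 to 8.64. In both genes the ranges overlapped, and the sign turned when wild-type replicate 2 was left out (0.06 and 0.17). Their 95% intervals were -0.69 to 0.37 and -0.79 to 0.58. Tsp26A ran from 4.42 to 4.55 in mutants, against 4.64 to 4.83 in wild type, and although these do not overlap they lay within the foreign controls on all 6 arrays. Of the genes listed for this protease and for Notch processing, 6 of 13 were measured and none was called (1 at an unadjusted p under 0.05). The brightest of them were Psn, the protease subunit of the gamma-secretase, with a change of -0.12 (SE 0.20), and pen-2, another of its subunits, with one of 0.75 (SE 0.29, adjusted p 0.320, and 0.00217 with the block). The gene of Kuzbanian itself, kuz, had a change of 0.02 (SE 0.15).

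The remaining members stayed near 0 or near the controls. Tsp33B and Tsp42A lay within the foreign controls on every array, as Tsp26A did. Tsp39D, Tsp47F, Tsp68C, Tsp96F and Tsp97E were above them on every array and had changes of 0.08, 0.04, 0.05, 0.13 and -0.0029, with adjusted p-values of 0.866 to 0.997 and of 0.431 to 0.992 with the block. The interval was narrow for Tsp68C (-0.13 to 0.24) and wide for Tsp96F (-0.67 to 0.94), whose arrays ran from 8.48 to 9.39 in mutants and from 8.34 to 9.27 in wild type. Of the 32 members, 27 were above the controls on all arrays, 2 on some (Tsp42Ek and Tsp42Eo) and 3 on none.

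**Figure D4:**
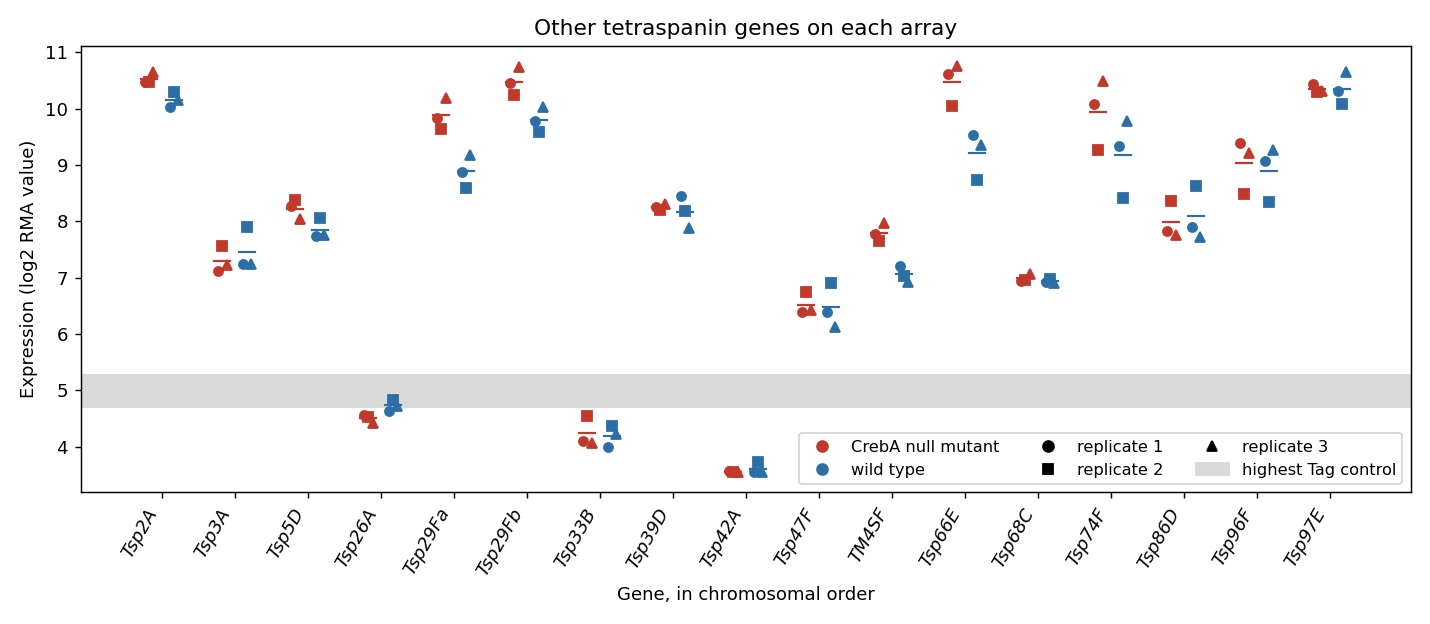
Log2 expression (y axis) of the 16 other tetraspanin genes and TM4SF, grouped by chromosome in the order X, 2L, 2R, 3L and 3R (x axis), with each gene's 3 mutant arrays in red left of its 3 wild-type arrays in blue, bars for means and a grey band for the range of the highest Tag control. Tsp66E, Tsp29Fa, Tsp29Fb, Tsp2A and TM4SF show mutants above wild type without overlap, and Tsp26A shows them below. Tsp74F shows wide spread with replicate 2 lowest in both, and Tsp26A, Tsp33B and Tsp42A lie at or under the band.

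In most members, as in most of all genes, replicate 2 stood at the same end in both genotypes, but that end differed between members. Replicate 2 was the highest array in both genotypes for 10 members and the lowest in both for 13, so that 71.9% of members had it at the same end, beside 62.8% of all genes. The median SE of a member's change was 0.15 without the block and 0.08 with it, close to those of all genes (0.15 and 0.08). Within replicate numbers the mutant array was above the wild-type array in all 3 for 20 members, 14 of them in the cluster, and below it in all 3 for 3 members, of which Tsp42Ee was the one in the cluster. Over all genes the shares were 25.9% above and 28.8% below. In Tsp42Ed and Tsp74F the genotypes overlapped, while the differences within replicate numbers lay between 0.29 and 0.35 and between 0.71 and 0.85.

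**Figure D5:**
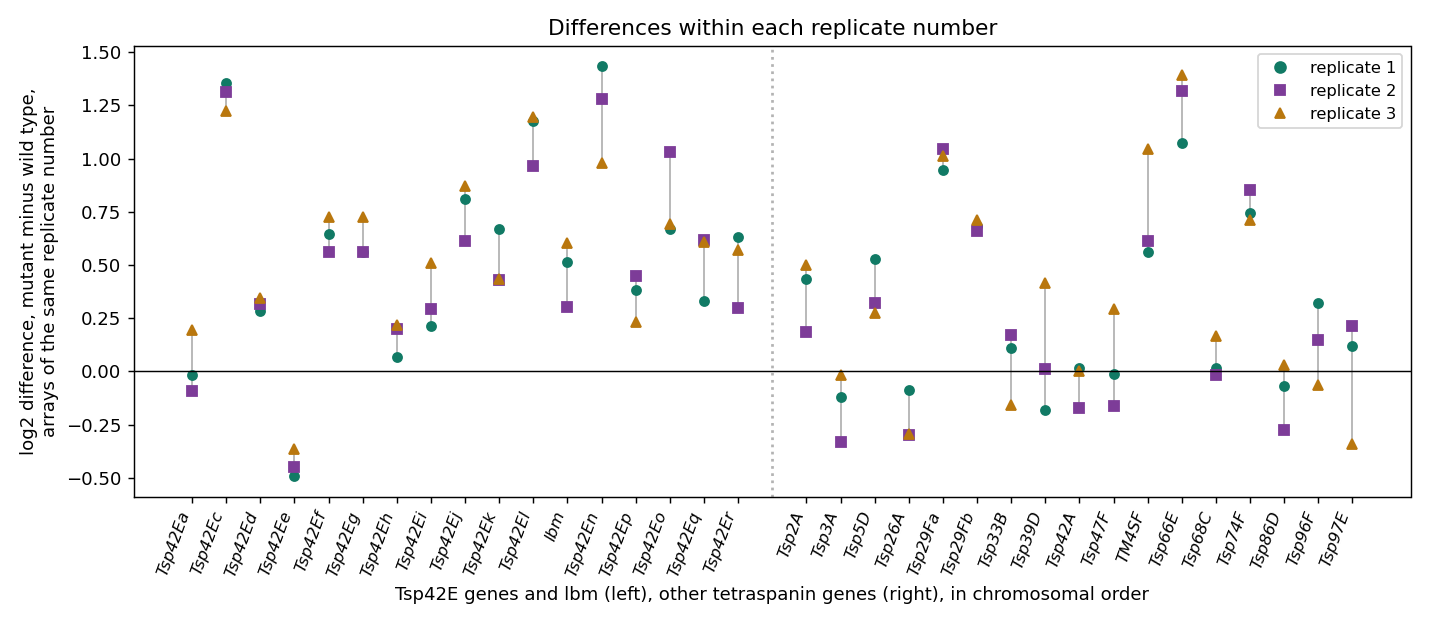
Difference in log2 expression between the mutant and the wild-type array of the same replicate number (y axis) for each gene, with colour and shape for the replicate number and a grey line from the lowest to the highest difference. Differences are above 0 in all 3 numbers for 14 of 16 Tsp42E genes, and they straddle 0 for members such as Tsp97E (-0.34 to 0.21).

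Among tetraspanins with other names and proteins that tetraspanins are known to bind or travel with, 4 of 26 measured genes were higher in the mutants and 0 lower, beside 1.90% and 1.02% of all genes. Their median change was 0.15, with -0.02 over all genes. Of 7 integrin genes 2 were higher in the mutants, both alpha subunits. Over the 7 genes 4 changes were positive and 3 negative, with a median of 0.13, and 2 genes lay within the foreign controls on every array. The gene scb had 9.42, 8.80 and 9.56 in mutants, against 6.46, 6.53 and 6.49 in wild type (change 2.77, SE 0.20, adjusted p 0.00542). The gene if (inflated) had 9.77, 9.77 and 9.84 in mutants, against 8.95, 8.96 and 8.86 in wild type (change 0.87, SE 0.07, adjusted p 0.00863). Of the genes for multivesicular bodies and vesicle release, through which tetraspanins leave cells on exosomes, 8 of 10 were measured and 1 was called. This was Rab35, a small GTPase of endosomal recycling, which was higher in the mutants with 6.86, 6.97 and 6.91 against 6.36, 6.33 and 6.10 in wild type (change 0.65, SE 0.10, adjusted p 0.0352). The call of Rab35 held in 9 of 19 alternative settings and was lost in all 6 that left out 1 array (adjusted p 0.0634 to 0.140). That of scb held in 18 and that of if in 16 of 19. The fourth called gene was TM4SF.

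The counts of calls changed with the arrays kept. The number of members called higher was 0 without mutant replicate 1, without mutant replicate 3 or without wild-type replicate 1. It was 1 without mutant replicate 2, 2 without wild-type replicate 3 and 5 without wild-type replicate 2. In the same order, 24, 33, 16, 114, 58 and 136 of all 11982 genes were called higher, against 228 with all arrays. Without both replicate 2 arrays 10 members (8 in the cluster) were called higher, beside 504 of all genes. When 1 array was left out, the cluster's median change stayed between 0.47 and 0.57. That of the other tetraspanin genes, 0.07 with all arrays, ran from 0.07 to 0.15, and was highest without wild-type replicate 2.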

How the data were processed

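The authors deposited RMA expression values on a log2 scale (the base is read off their span, 2.81 to 14.53) for 6 Affymetrix Drosophila Genome 2.0 arrays. RMA and Partek are the programs given, per the submitters' processing notes, and versions and filters are not given in the sources used here. The platform annotation named the probe sets, and the RefSeq table of Release 6 served for gene order and overlap only.

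Without the 183 Affymetrix controls, 18769 probe sets were fitted with lmFit and eBayes of limma 3.58.1 (R 4.3.3), two-sided, with no filter or block, and called at a Benjamini-Hochberg adjusted p under 0.05. A gene was read from the brightest probe set that named it alone. A value counts as within the foreign controls when it is at or below the highest of 17 Tag controls on its array.

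Both genotypes number their replicates 1 to 3. Deviations from genotype means correlated over probe sets by 0.639, 0.852 and 0.563 for equal numbers. All exceed 0.1, the bar set for treating numbers as pairs. Deviations sum to 0 over the 3 arrays of a genotype, so these values depend on each other. Unequal numbers were not compared and no label states a shared collection, so this check cannot decide whether the numbers are pairs.

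The members and lists were chosen with earlier results of these data known. Members called, members called with the block without overlap and the 6 with the largest change are given array by array, with up to 3 called genes, or else the 2 brightest, of each related list. Tsp42Ed, Tsp74F, lbm and kuz were added after their values were seen. The fits with and without the block were run on data simulated from the blocked fit. Only the sign of the planted changes was checked there, and recovery and false calls are not given here. Figures were drawn with matplotlib 3.10.9 (python 3.11.15). Alternatives were other scalings, filters, variance models, array weights, blocks, thresholds, probe sets and left-out arrays.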

Additional observations from a re-analysis of the deposited data

How the results depend on the processing

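Among the 32 members, the number of tetraspanin genes higher in the mutants was 4, all in the Tsp42E cluster. It was 19 with the replicate block (13 in the cluster, 6 elsewhere, with 1 cluster gene lower), 17 with the block as a random effect (12 and 5, with 1 lower), 16 with array weights (11 and 5, with 1 lower), 10 without both replicate 2 arrays (8 and 2), 7 at an adjusted p under 0.1 (5 and 2) and 0 without moderation of the variance. Leaving out 1 array gave 0 to 5 in all and 0 to 5 in the cluster. Of all 11982 genes, 228 were higher in the main fit, 1504 with the fixed block and 1178 with the random block. The number was 1137 with array weights, 504 without both replicate 2 arrays, 460 at an adjusted p under 0.1 and 9 without moderation. After quantile normalization it was 199, and without 1 array it ran from 16 to 136. Related genes called higher numbered 4, against 8 and 9 with the fixed and random block, 9 with array weights, 6 without both replicate 2 arrays, 2 after quantile normalization, 1 without moderation and 1 to 2 without 1 array. The cause of these shifts was not tested. The cluster's median change ran from 0.44 to 0.59 over all alternatives, beside 0.60, 0.51 and 0.59 within the 3 replicate numbers. That of the other tetraspanin genes (0.07) ran from -0.0049 to 0.15, beside 0.11, 0.16 and 0.22. Some of these moves were about as large as the value itself. This median change was 0.0049 under a common median (-0.085 over all genes) and -0.0049 under ribosomal protein scaling (-0.094 over all genes). Without wild-type replicate 2 it was 0.15. The median levels of the cluster and of the other tetraspanin genes had SDs of 0.15 and 0.18 between arrays of a genotype. These SDs are not spreads of the change. Alternatives with ribosomal protein scaling and without both replicate 2 arrays were chosen after the data were seen. Ribosomal protein scaling took the share of higher among all called genes to 43.6%, against 65.1%. It left 3 members higher and none lower, beside 170 and 220 of all genes.

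Signs turned only for members called in no fit. Under a common median, Tsp33B, Tsp42Ea, Tsp47F and Tsp68C had changes of -0.022, -0.035, -0.023 and -0.0087, and under ribosomal protein scaling of -0.032, -0.045, -0.033 and -0.019. Quantile normalization gave Tsp47F -0.057 and Tsp97E 0.0092, array weights gave Tsp39D -0.057 and Tsp97E 0.038, and leaving out both replicate 2 arrays gave Tsp33B -0.024 and Tsp42A 0.0071. Without 1 array the changes ran from -0.11 to 0.13 for Tsp33B, -0.061 to 0.22 for Tsp39D, -0.28 to 0.062 for Tsp3A, -0.084 to 0.0061 for Tsp42A, -0.099 to 0.16 for Tsp42Ea, -0.14 to 0.26 for Tsp47F, -0.29 to 0.17 for Tsp86D, -0.14 to 0.41 for Tsp96F and -0.13 to 0.14 for Tsp97E. Signal limits Tsp26A, Tsp33B and Tsp42A, which lay within the foreign controls on all arrays.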
